A study of Caenorhabditis elegans with 4 samples.

Results

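The 5 genes *cnd-1*, *ngn-1*, *lin-32*, *hlh-3* and *hlh-14* of the basic helix-loop-helix (bHLH) family are described here in the *prg-1* mutant of *C. elegans*. They make up 5 of the 46096 genes that each table lists, of which 19519 are protein-coding. They were chosen by name as proneural genes, with their levels in these same libraries already known, so their levels, folds and counts are a description and no test was made of them. Every sample is from the mutant (wm161), in which the gene of PRG-1, the PIWI-class Argonaute that binds 21U-RNAs, is mutated. Poly(A) RNA of whole worms grown at 20°C on OP50 bacteria was sequenced in 4 libraries, 1 for each larval stage (L1, L2, L3 and L4). The stages were compared with each other, since wild-type libraries were not analysed here. With 1 library a stage, no difference has a replicate check and no p-value was computed.

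Proneural bHLH proteins are transcription factors that commit cells to become neurons or to divide as neuroblasts. They usually bind DNA as dimers with an E protein, which in *C. elegans* is HLH-2, and Notch signalling and Hes-related bHLH repressors oppose them in many animals. Most *C. elegans* neurons are born in the embryo, but further blast cells, such as the P and Q cells, give rise to neurons of the ventral cord and body after hatching, beginning in the first larval stage.

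The 5 genes belong to different branches of the family. *hlh-3* (T24B8.6) and *hlh-14* (C18A3.8) encode Achaete-Scute proteins, known for roles in the lineages that make the HSN motor neurons. *lin-32* (T14F9.5) encodes the Atonal protein, known for its role in making touch receptor neurons and the sensory rays of the male tail. *cnd-1* (C34E10.7) encodes a NeuroD protein that acts in motor neurons of the embryonic ventral cord, and *ngn-1* (Y69A2AR.29) encodes the neurogenin. The files, whose build the submitters' processing notes name as ce10, list *hlh-3* on chromosome II from 9086608 to 9087917 and *hlh-14* on chromosome II from 5737790 to 5739792. They list *cnd-1* on chromosome III from 5240593 to 5242108, *ngn-1* on chromosome IV from 2626132 to 2628230 and *lin-32* on chromosome X from 2229124 to 2230102. In the WBcel235 annotation, each has 1 transcript, of 2 exons for *hlh-3* and 3 exons for the other 4, and *hlh-3* alone is on the forward strand. No other listed gene overlaps any of them.

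The gene model behind a level differs between annotations for some of these genes. WBcel235 ends *cnd-1* at 5244639 rather than 5242108 and *hlh-14* at 5738895 rather than 5739792. Levels are divided by transcript length, so the order of the genes within a stage can depend on the models, while the stages of 1 gene are compared on the same model.

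The unit of all levels is FPKM, the fragments of a gene per kilobase of its transcript in 1000000 mapped fragments, which allows genes of different length to be compared. Each is given with the 95% interval of the authors' Cufflinks files in parentheses. That interval covers error within a library only. It is not always centred on the level. In each library 1475 to 1618 protein-coding genes had an FPKM outside their own interval, though the 5 genes and *hlh-2* did not. The calls below rest on these intervals. Between 15599 and 16382 protein-coding genes were above 0 in each library, and 18 to 41 estimates per library had failed, none of them of the 5 genes. The relative depth, recovered from values below 1 FPKM, was 1.005 for L2, 1.038 for L3 and 1.053 for L4, with L1 set to 1. *prg-1* was still listed at 11.02 to 23.6 FPKM, in tables that do not resolve the mutated part of the gene. Listed markers of muscle, pharynx, intestine, hypodermis, germline and neurons were detected at every stage, so the libraries carry RNA of many tissues.

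*hlh-3* was the highest of the 5 genes at L1. It stood at 13.5 FPKM (8.52 to 13.98) in L1, 4.19 (2.28 to 5.43) in L2, 0.701 (0.210 to 1.16) in L3 and 0.552 (0.104 to 0.933) in L4 larvae. L1 was highest and L2 next, with intervals that did not overlap in either step, and L3 and L4 were low with intervals that did. At L4 the level was 24.5 times lower than at L1, a log2 difference of -3.23 on the scale of FPKM with a pseudocount of 1. By rank, *hlh-3* was 13491st of the 16092 protein-coding genes detected at L4 and 5689th of 16382 at L1.

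*hlh-14*, the other Achaete-Scute gene, had the same order of stages at lower levels. It stood at 5.63 FPKM (3.23 to 7.86) in L1, 2.73 (1.40 to 3.81) in L2, 0.757 (0.194 to 1.26) in L3 and 0.746 (0.192 to 1.24) in L4 larvae. The intervals of L1 and L2 overlapped, those of L2 and L3 did not, and L3 and L4 were almost equal. The level at L4 was 7.55 times lower than at L1, with a log2 difference of -1.92.

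*lin-32* was also highest at L1, with smaller steps between the stages. It stood at 2.74 FPKM (0.844 to 4.05) in L1, 1.91 (0.503 to 3.19) in L2, 1.32 (0.325 to 2.28) in L3 and 0.260 (0 to 0.481) in L4 larvae. Each stage overlapped the next by its interval, so no single step stood out, but L4 was below L1 without overlap, by a log2 difference of -1.57. It was the only one of the 5 genes above 1 FPKM at L3.

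*cnd-1* had a different pattern, with a single high stage. It stood at 1.23 FPKM (0.456 to 1.94) in L1, 6.58 (3.63 to 8.84) in L2, 0.297 (0 to 0.549) in L3 and 0.292 (0 to 0.541) in L4 larvae. L2 was above all other stages without overlap, and the intervals of L3 and L4 reached 0. The level at L2 was 5.35 times that at L1, and the level at L3 was 22.2 times lower than at L2. It was the highest of the 5 genes at L2 and the 8173rd of 15845 protein-coding genes detected there.

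*ngn-1* was also detected at L2, and there alone. It stood at 1.29 FPKM (0.287 to 2.16) at L2 and was listed at 0 at L1, L3 and L4. The files give those zeros an interval of 0 to 0, which states no error, so the data do not say how far below detection the gene was. No ratio of its stages is given, and the size of its log2 differences below depends on the pseudocount. At L2 it was the lowest of the 5 genes, with an interval that overlapped that of *lin-32*, the next.

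**Figure D1:**
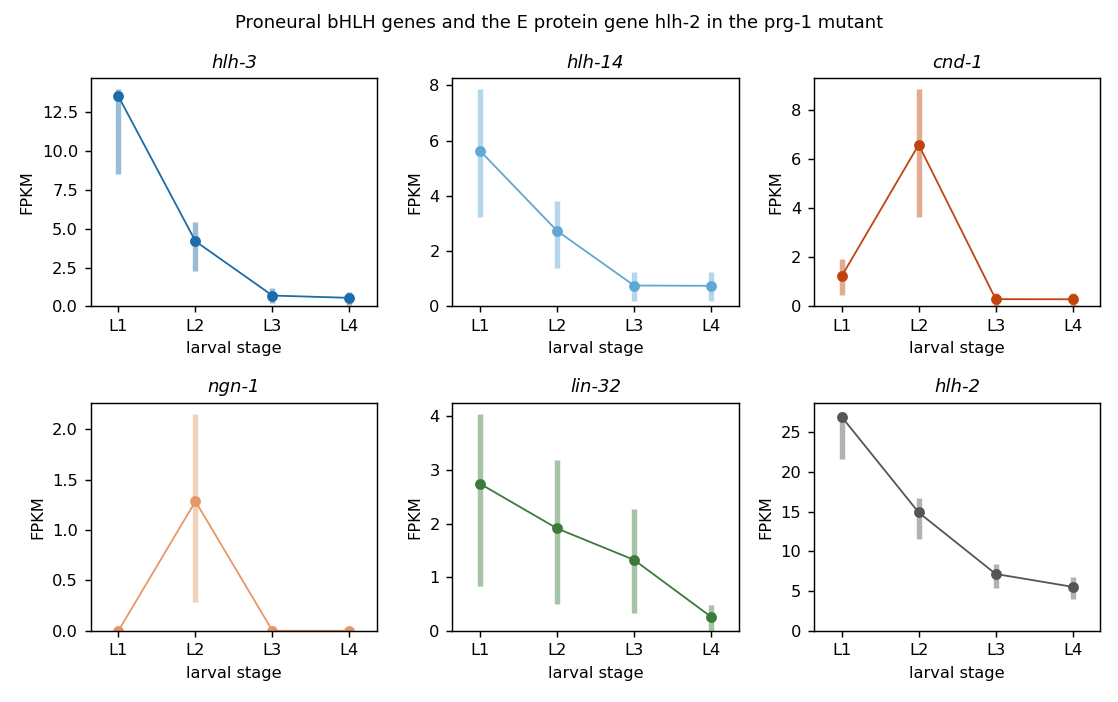
FPKM (vertical axes, each from 0 with its own range) at L1, L2, L3 and L4 (horizontal axes) for the 5 proneural genes and *hlh-2*, with points for the value of the 1 library of each stage and bars for its 95% Cufflinks interval. *hlh-3*, *hlh-14* and *lin-32* are highest at L1, while *cnd-1* (6.58 FPKM) and *ngn-1* (1.29 FPKM) are highest at L2.

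The precision of these levels is low. After correction for relative depth, the 4 values of *cnd-1* stood in the ratio 8 to 43 to 2 to 2 from L1 to L4, those of *lin-32* as 10 to 7 to 5 to 1, those of *hlh-3* as 93 to 29 to 5 to 4 and those of *hlh-14* as 43 to 21 to 6 to 6. These are the smallest whole numbers in each ratio, within a tolerance of 0.005, and the counts of fragments could be a common multiple of them. Such whole ratios were found for 2688 of 8050 protein-coding genes above 0 in all 4 libraries and below 15 FPKM in each (33.4%). If the counts were these numbers themselves, *lin-32* at L4 would rest on 1 fragment and *cnd-1* at L3 and L4 on 2 each. Of the 20 values of the 5 genes, 3 were listed at 0, another 3 had a lower bound of 0, and in the other 14 the half-width of the interval was 24.3% to 80.0% of its midpoint. If the lower bounds of these 14 reflected counting error alone, the values would rest on about 6.06 to 29.2 fragments. For *hlh-3* at L1 that gives 29.2, where the whole ratio has 93, so these approximate counts differ. The estimate treats the level as the midpoint of its interval. The 13.5 FPKM of *hlh-3* at L1 lies near the top of its interval (8.52 to 13.98), so 29.2 can be too low.

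The order of the genes changed with the stage. At L1, *hlh-3* was above *hlh-14* without overlap, and *hlh-14*, *lin-32* and *cnd-1* followed with neighbours that overlapped. At L2 the order was *cnd-1*, *hlh-3*, *hlh-14*, *lin-32* and *ngn-1*, and every pair of neighbours overlapped, while *cnd-1* was above *lin-32* and *ngn-1* without overlap. At L3 *lin-32* led and at L4 *hlh-14* led, again with overlap between all neighbours.

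Summed over the 5 genes, the level was 23.1 FPKM in L1, 16.7 in L2, 3.08 in L3 and 1.85 in L4 larvae. *hlh-3* made up 25.1% of the sum at L2 and 58.5% at L1, and *cnd-1* made up 39.4% at L2 and 5.32% at L1. The sum at L2 was thus 72.2% of that at L1. *cnd-1* was the leading gene at L2 in place of *hlh-3*, but the intervals of these genes overlapped there. The shares also depend on the gene models, as said above. At L3 and L4 the sum was 13.3% and 8.01% of the L1 value, with *lin-32* (43.0%) and *hlh-14* (40.3%) as the largest contributors.

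*hlh-2* (M05B5.5), which encodes the E protein partner, was higher than any of the 5 genes at each stage. It stood at 26.9 FPKM (21.7 to 27.5) in L1, 14.9 (11.6 to 16.7) in L2, 7.16 (5.33 to 8.40) in L3 and 5.53 (4.03 to 6.74) in L4 larvae. L1, L2 and L3 were separated by their intervals, and L4 overlapped L3. The summed level of the 5 genes was 0.858 times that of *hlh-2* in L1, 1.12 in L2, 0.430 in L3 and 0.335 in L4 larvae. By the bounds of the intervals these ratios run from 0.474 to 1.28, 0.484 to 2.02, 0.0869 to 0.984 and 0.0438 to 0.794, so the ratios of all 4 stages overlap.

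Genes used by all neurons were summed for comparison. The level of 13 pan-neuronal genes, among them *rab-3* and *snb-1* of the synaptic vesicle, was 94.5% of the L1 value at L2, 85.98% at L3 and 68.6% at L4. For each 100 FPKM of these genes the 5 proneural genes had 4.04 FPKM in L1, 3.09 in L2, 0.626 in L3 and 0.472 in L4 larvae. A 14th gene, *unc-31*, was left out of the sum after its values were seen, because its listed 2412 FPKM at L1 has an interval of 4.14 to 11402. *snb-1* was kept, and it gave 256 of the 572 FPKM of the L1 sum. At every stage its value lay above its own interval (184.9 to 209.0 at L1), so the sum leans on an uncertain estimate. The summed level of 6 germline markers was 126, 124, 133 and 220 FPKM over L1 to L4, and none was at 0. By the rule of size given below, 4 of 6 (*glh-1*, *pgl-1*, *oma-1* and *gld-1*) were higher at L4 against L1, against 7.1% of all protein-coding genes. *glh-1* and *gld-1* were also higher at L4 against L3, against 2.56% of all protein-coding genes. *glp-4* had a log2 difference of -0.27 at L4 against L1 and was not called. The 6 vitellogenin genes, which encode yolk proteins, summed to 14.7, 1.85, 1.14 and 261 FPKM, 4 muscle markers to 1923, 2968, 3356 and 3390, and 6 hypodermis markers to 607, 1286, 1049.5 and 905. All 6 vitellogenin genes were higher by the rule at L4 against L3 and at L4 against L1, and 1 muscle marker was higher at L4 against L1. The hypodermis markers *rol-6* and *wrt-2* were higher at L2 against L1, against 4.71% of all protein-coding genes, and also at L4 against L1. Other calls went the other way. *vit-2* (-2.08) and *vit-6* (-2.35) were lower at L2 against L1, against 1.74% of all protein-coding genes. The hypodermis marker *elt-5* (-1.06) was lower at L4 against L1, against 3.2%. The 4 intestine markers summed to 1584 to 1844 FPKM and the 4 pharynx markers to 191 to 265 FPKM per stage, and none was called. The part of the RNA of these tissues in the stage differences of the proneural genes was not tested. In whole worms fewer cells that express a gene and less RNA per cell cannot be told apart.

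**Figure D2:**
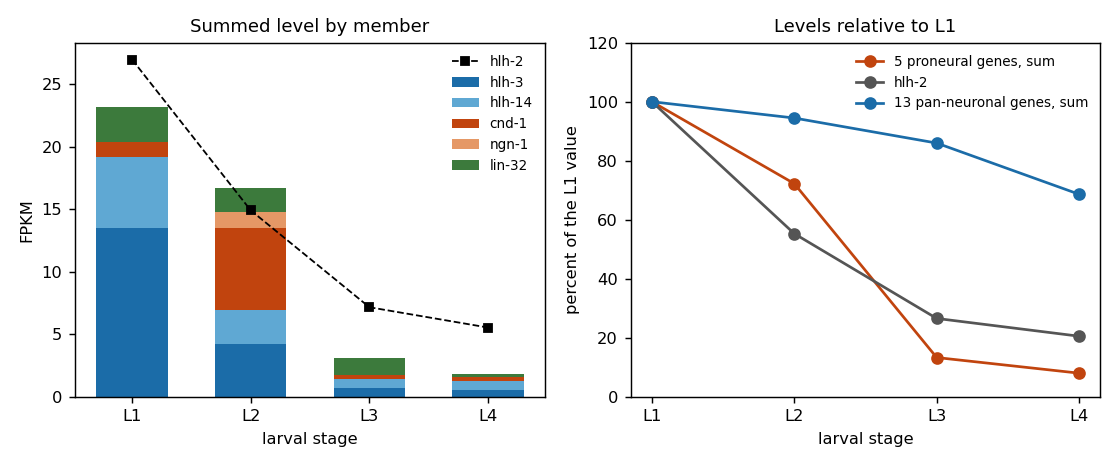
Left, FPKM of the 5 proneural genes stacked by gene at each larval stage, with *hlh-2* as black squares joined by a dashed line. Right, the sum of the 5 genes, *hlh-2* and the sum of 13 pan-neuronal genes as a percentage of their L1 values. At L3 the proneural sum is 13.3% of its L1 value and the pan-neuronal sum 85.98%.

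To count differences between stages, a gene was called higher or lower when the log2 difference of FPKM with a pseudocount of 1 was at least 1 in size, 1 of the stages had at least 1 FPKM and the intervals did not overlap. At that pseudocount a log2 difference of 1 already needs at least 1 FPKM in the higher stage, so the second condition adds nothing. This rule of size was applied to all protein-coding genes without a failed estimate. The shares and medians over all protein-coding genes thus include genes below 1 FPKM in both stages, which the rule could not call. Of the 19519 protein-coding genes, 13680 had at least 1 FPKM at some stage. Comparisons that use the same stage share its library, so the high values of *cnd-1* and *ngn-1* in the L2 library enter both L2 against L1 and L3 against L2. A pseudocount of 1 understates the difference of genes at such low levels, so intervals that did not overlap were also counted without a fold.

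At L2 against L1, 2 of the 5 genes were higher and 1 was lower. *cnd-1* was higher by a log2 difference of 1.76 (6.58 against 1.23 FPKM), and *ngn-1* was higher by 1.19 (1.29 FPKM against a listed 0). The call of *ngn-1* has no error on the L1 side, since a listed 0 comes with an interval of 0 to 0, which any lower bound above 0 clears. *hlh-3* was lower, with a log2 difference of -1.48 (4.19 against 13.5 FPKM). *hlh-14* and *lin-32* had differences of -0.83 and -0.36 with overlapping intervals. Of all protein-coding genes tested, 4.71% were higher and 1.74% lower by the same rule, and 9.03% and 11.9% by intervals alone, under which the same 2 and 1 genes were counted. The median log2 difference was -0.36 over the 5 genes and -0.03 over all protein-coding genes.

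At L3 against L2, 4 of the 5 genes were lower and none was higher, and of the 4 *ngn-1* was set against a listed 0 with no error and *hlh-14* was near the limit of the rule. *cnd-1* had a log2 difference of -2.55 (0.297 against 6.58 FPKM), and 0.0976% of protein-coding genes had a more negative difference. *hlh-3* had a difference of -1.61 (0.701 against 4.19 FPKM), *ngn-1* of -1.19 (a listed 0 against 1.29 FPKM) and *hlh-14* of -1.09 (0.757 against 2.73 FPKM). *hlh-14* fell short of the rule when values were rescaled to a sum of 1000000, which leaves 3 genes lower. *lin-32*, at -0.33 (1.32 against 1.91 FPKM), had overlapping intervals. Among all protein-coding genes, 1.15% were higher and 2.17% lower, and 7% and 9.58% by intervals alone. The median over the 5 genes was -1.19, which is the value of *ngn-1* against a listed 0, and it was 0 over all protein-coding genes.

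At L4 against L3, none of the 5 genes was called in either direction, by either rule. *lin-32* had the largest difference, at -0.88 (0.260 against 1.32 FPKM) with overlapping intervals. *hlh-3* was at -0.13, *hlh-14* at -0.01 and *cnd-1* at -0.00, and *ngn-1* was listed at 0 in both stages. All 4 genes other than *lin-32* were below 1 FPKM at both stages, so the rule could not call them. Of all protein-coding genes, 2.56% were higher and 0.355% lower, and 8.59% and 5.24% by intervals alone. The median was -0.01 over the 5 genes and 0 over all protein-coding genes.

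At L4 against L1, *hlh-3* (-3.23), *hlh-14* (-1.92) and *lin-32* (-1.57) were lower and none was higher. *cnd-1* was at -0.79 (0.292 against 1.23 FPKM) with overlapping intervals, and *ngn-1* was listed at 0 at both ends. Of all protein-coding genes, 7.1% were higher and 3.2% lower, and 12.4% and 15.7% by intervals alone. The median was -1.57 over the 5 genes and -0.01 over all protein-coding genes. For *hlh-3*, 0.0668% of protein-coding genes had a more negative difference. Scaling by median ratios would add 0.11 to 0.12 to the log2 differences against L1 of well expressed genes, and it changed none of these calls.

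Other bHLH genes were counted by the same rule. Of 36 listed, 1 was higher at L2 against L1 (4.71% of all protein-coding genes), 1 was lower at L3 against L2 (2.17%), none was called at L4 against L3 and 2 were lower at L4 against L1 (3.2%). Between 21 and 25 of the 36 had at least 1 FPKM in one of the compared stages, and the others could not be called. The gene higher at L2 was *cky-1*, which encodes a PAS-domain bHLH protein (7.66 against 2.77 FPKM, 1.20). The gene lower at L3 was *ahr-1*, which encodes the aryl hydrocarbon receptor (1.12 against 3.45 FPKM, -1.07), and it was also lower at L4 than at L1 (0.849 against 4.19 FPKM, -1.49). The other gene lower at L4 than at L1 was *hlh-2*, at -2.10. At the steps between adjacent stages *hlh-2* was short of 2-fold on this scale, with -0.81 at L2 against L1 and -0.96 at L3 against L2, and intervals that did not overlap. The median differences of the 36 genes were -0.03, -0.19, -0.07 and -0.20 over the 4 comparisons in the order above.

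The other 4 Achaete-Scute genes of the lists, *hlh-4*, *hlh-6*, *hlh-12* and *hlh-19*, were not called in any comparison, and *hlh-19* was below 1 FPKM throughout. *hlh-4* stood at 2.69, 2.06, 0.598 and 0.786 FPKM over L1 to L4, and *hlh-12* at 0.573, 0.570, 2.49 and 1.09, highest at L3. Of 7 Hes-related and REF-1 family genes, which encode repressors, none was called, and only *lin-22* and *ref-1* reached the 1 FPKM that a call needs. *lin-22*, known for holding back neuron formation in the lateral epidermis, stood at 6.47, 12.6, 10.8 and 5.61 FPKM, with the values at L2 and L3 above their own intervals. The other 5 of these genes apart from *ref-1* stayed below 0.2 FPKM, and reads of near-identical copies among them could be split between genes.

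In the Notch pathway, the ligand gene *lag-2* was the one gene of 11 that was lower. It stood at 11.7, 8.23, 1.72 and 1.61 FPKM over L1 to L4. It was lower at L3 against L2, with a log2 difference of -1.77, and at L4 against L1, with -2.29, and *hlh-3* and *hlh-14* were called lower in the same comparisons. The receptor gene *glp-1*, which acts in the germline, was the 1 higher gene, with 7.80 FPKM at L4 against 1.48 at L1 (1.83). The share of all protein-coding genes called lower was 2.17% at L3 against L2. At L4 against L1 it was 3.2%, and 7.1% were higher. The receptor gene *lin-12* was within 3.34 to 4.98 FPKM at all stages. The medians of the 11 genes were -0.17 at L2 against L1, -0.24 at L3 against L2, 0.14 at L4 against L3 and -0.20 at L4 against L1.

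Among 9 genes of neuroblast division and of the cell deaths that follow it, *ces-1* alone was called. It encodes a Snail-type repressor that controls the death of certain neuronal sister cells, and stood at 0.283, 3.65, 0.408 and 0 FPKM over L1 to L4. L2 was thus the high stage, as for *cnd-1* and *ngn-1*, with differences of 1.86 at L2 against L1 and -1.72 at L3 against L2. The share of all protein-coding genes called higher at L2 against L1 was 4.71%, and 2.17% were lower at L3 against L2. *ham-1*, needed for asymmetric neuroblast divisions, stood at 11.4, 14.6, 11.99 and 12.5 FPKM and was not called. *egl-1*, a cell death gene that HLH-3 is known to activate in a neuronal lineage, stood at 0.760, 0.756, 0.488 and 0.481 FPKM, below the 1 FPKM that a call needs at every stage. It is named for that role, after its values were seen.

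Transcription factors that fix the identity of neurons gave a broader view. At L2 against L1, 2 of 30 were higher, *unc-55* (7.54 against 1.63 FPKM, 1.70) and *unc-3* (8.68 against 3.10 FPKM, 1.24), and none was lower. Both act in motor neurons of the ventral cord, *unc-55* in the VD class and *unc-3* in cholinergic classes. Of all protein-coding genes, 4.71% were higher and 1.74% lower in this comparison. Of 10 listed motor neuron genes 1 was higher, the GABA synthesis gene *unc-25* (27.98 against 12.5 FPKM, 1.11), while the median of the 10 was 0.11 and 3 had a difference below 0.

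At L3 against L2, 3 of the 30 factors were lower, *unc-55* (2.46 against 7.54 FPKM, -1.30), *egl-46* (3.39 against 9.65 FPKM, -1.28) and *zag-1* (9.25 against 21.7 FPKM, -1.15). Of all protein-coding genes, 2.17% were lower. The median of the 30 was -0.51, and 26 had a difference below 0. At L4 against L3, 1 of the 30 was lower, *ceh-10* (0.381 against 2.03 FPKM, -1.13), against 0.355% of all protein-coding genes. At L4 against L1, 5 were lower, against 3.2% of all protein-coding genes, of which *egl-46* (-1.61), *unc-42* (-1.46), *sox-3* (-1.43) and *unc-86* (-1.34) had the largest differences and *ceh-10* (-1.07) the smallest. *unc-86*, a POU factor that acts after *lin-32* in the touch neuron lineage, stood at 12.3, 10.6, 6.53 and 4.24 FPKM over L1 to L4. Of the 27 factors with at least 1 FPKM at some stage, 12 were highest at L1 and 12 at L2 (44.4% each). Of the 5 proneural genes, 3 were highest at L1 and 2 at L2. Of 13680 protein-coding genes with that level, 41.2% were highest at L1 and 21.0% at L2.

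**Figure D3:**
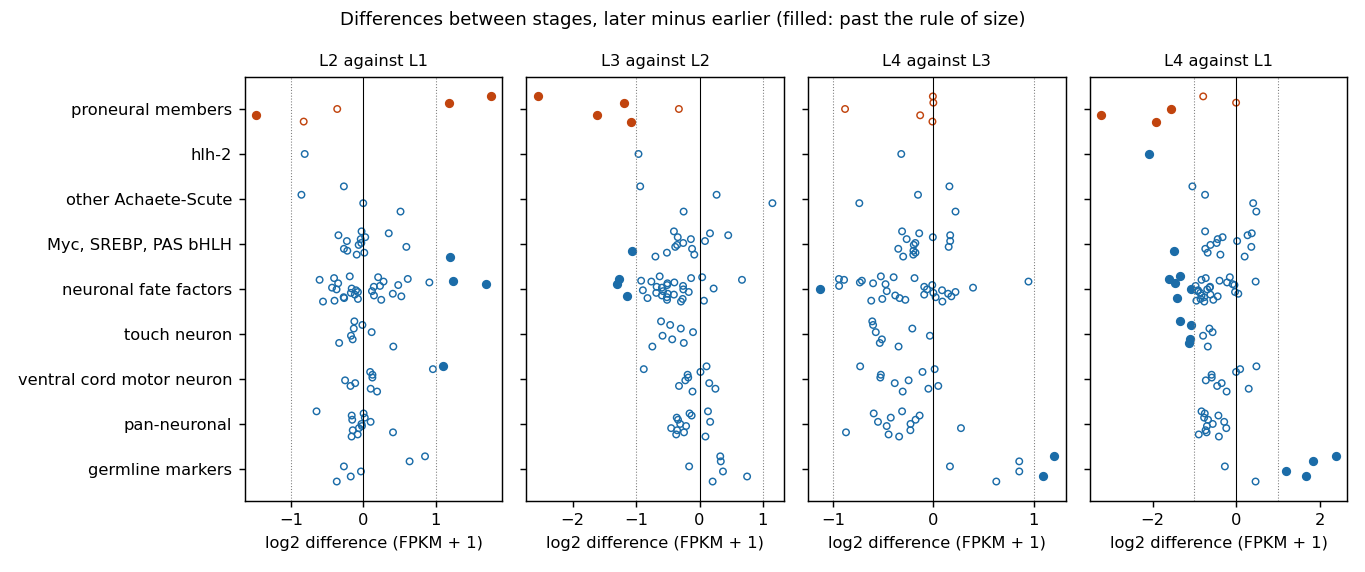
Log2 differences of FPKM with a pseudocount of 1, later minus earlier stage (horizontal axes, ranges differ between panels), with 1 circle a gene and 1 row a gene list. Filled circles are genes past the rule of size and dotted lines mark differences of -1 and 1, and *unc-31* is left out. The proneural row has 3 filled circles at L2 against L1, 4 at L3 against L2, none at L4 against L3 and 3 at L4 against L1.

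**Figure D4:**
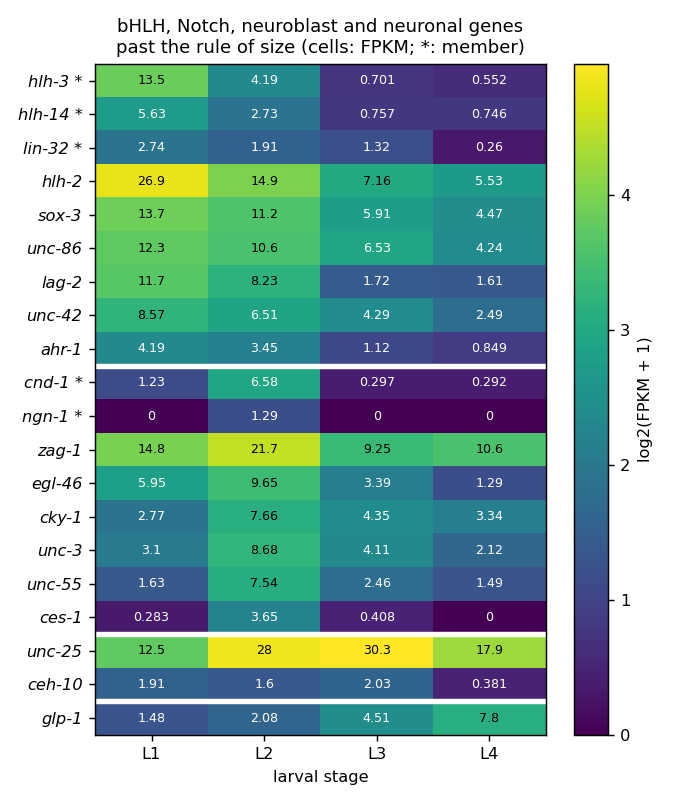
FPKM (numbers in cells) and log2 of FPKM with a pseudocount of 1 (colour) by larval stage for the bHLH, Notch, neuroblast, neuronal fate and motor neuron genes past the rule of size in at least 1 comparison. Rows are grouped by the stage of the highest value, from L1 at the top to L4 at the bottom, and an asterisk marks the 5 proneural genes. *hlh-3*, *hlh-14* and *lin-32* stand in the L1 group with *hlh-2* and *lag-2*, and *cnd-1* and *ngn-1* in the L2 group with *ces-1*, *unc-55* and *unc-3*.

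The profiles of the 5 genes were also compared directly. The measure was the root mean square difference of log2 profiles over the 4 libraries, each centred on its own mean, which is small when profiles are alike. The closest pair was *lin-32* and *hlh-14* (0.45), followed by *hlh-3* and *hlh-14* (0.51) and by *cnd-1* and *ngn-1* (0.57). The farthest pair was *ngn-1* and *hlh-3* (1.31). This scale also reflects the level, because low genes have flat profiles once 1 is added.

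Among protein-coding genes with a mean FPKM within 2-fold, the number with a profile like that of each member differed widely. Within a difference of 0.25 there were none of 3026 genes for *cnd-1*, 1 of 3937 for *hlh-3*, 6 of 3161 for *hlh-14*, 31 of 2034 for *ngn-1* and 100 of 2796 for *lin-32*. The genes most like *cnd-1* were C38C5.1 (0.31), F49C12.3 (0.32) and F23H11.6 (0.33), and all had L2 as their highest stage. Those most like *ngn-1* were Y38E10A.9 (0.03), Y22D7AL.3 (0.04) and T05F1.15 (0.04), each listed at 0 at every stage but L2.

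The genes most like *hlh-3* were C24H11.5 (0.13), the small heat shock gene *hsp-16.41* (0.29) and Y17D7C.6 (0.34). *hsp-16.41*, which has close copies that could share its reads, stood at 7.51, 2.33, 0.678 and 0.223 FPKM over L1 to L4. Those most like *hlh-14* were the C-type lectin gene *clec-210* (0.09), *ref-2* (0.18) and W01A11.7 (0.20). *ref-2*, which encodes a Zic-type zinc finger protein known from the ventral epidermal P cells, stood at 7.37, 4.55, 2.14 and 1.56 FPKM. Those most like *lin-32* were F26F4.2 (0.04), the globin gene *glb-17* (0.06) and T24A6.7 (0.08). These likenesses are over 4 points that share libraries and depth, and are descriptions.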

How the data were processed

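Values were the authors' deposited FPKM per gene, made from poly(A) RNA of 4 libraries with TopHat2 (2.0.8) and Cufflinks (2.1.1), with a 95% interval and a status. The submitters' processing notes name build ce10. For the annotation version, strand and multiply mapped reads, the choice is not given in the sources used here. Tables were joined by gene name and locus with Python (3.11.15), numpy (2.4.6) and pandas (2.3.3), and figures drawn with matplotlib (3.10.9). Starts in the files count from 0 and were raised by 1. Biotypes and exons came from RefSeq and WBcel235.

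The rule of size used a pseudocount of 1, at least 1 FPKM in 1 stage, 2-fold and intervals that do not overlap. It was tested on simulated data. The 5 genes, the 19 gene lists and the rules were chosen with earlier results of these data known. Named genes are the 5, *hlh-2*, bHLH genes past the rule, up to 4 per other list by mean FPKM and up to 4 by difference among those past the rule, and the 3 most similar profiles for each of the 5. Genes named outside this rule (*hlh-4*, *hlh-12*, *lin-22*, *ref-1*, *lin-12*, *egl-1*, *unc-31*, *ceh-10* at L4 against L1) were chosen after their values were seen. *cha-1* was not matched by name. Sequences of the 5 genes were not analysed here. Alternatives changed the pseudocount, filter, scaling, interval use and fold, and the midpoint of the interval in place of FPKM was added after seeing the data.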

Additional observations from a re-analysis of the deposited data

How the results depend on the processing

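No paired analysis was possible because only 1 library was made per stage. For the same reason no replicate could be left out. Under 7 alternatives the counts of proneural genes called were as reported, apart from 3 rather than 4 lower at L3 against L2 after rescaling to a sum of 1000000, where *hlh-14* was lost. One of the 7, without the filter on low values, could change no count. With a pseudocount of 1, a 2-fold difference already needs at least 1 FPKM. Of 80 recomputed differences of the 5 genes 72 moved little, 8 moved and none reversed, and those that moved did so with a pseudocount of 0.1, by construction a weaker damping of low values. With it *ngn-1* was at 3.79 at L2 against L1 and -3.79 at L3 against L2, *cnd-1* at -4.07 and *hlh-3* at -2.42 at L3 against L2, *lin-32* at -1.98 at L4 against L3, and *cnd-1* at -1.76, *lin-32* at -2.98 and *hlh-3* at -4.38 at L4 against L1. Of 227 list medians 54 moved and none reversed. Of 56 counts of protein-coding genes 9 moved. At 1.5-fold, which adds genes by construction, 827 genes were lower at L2 against L1, 555 higher and 941 lower at L3 against L2, 878 higher and 279 lower at L4 against L3, and 1599 lower at L4 against L1. Without the intervals 346 were higher at L3 against L2 and 178 lower at L4 against L3, and with a pseudocount of 0.1, 115 were lower at L4 against L3. Depth limits the values below 1 FPKM, and the spread between cultures is unknown.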

Other observations

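Genes of the touch receptor neurons, a cell type that *lin-32* helps to make, were lower at L4 than at L1 in 4 of 8 cases by the rule of size, and all 8 had a difference below 0 (median -0.93). Of all protein-coding genes, 3.2% were lower in this comparison. *mec-7*, a tubulin gene of these neurons, stood at 33.5 FPKM at L4 against 71.9 at L1 (-1.08), *mec-2* at 6.45 against 15.2 (-1.12), *mec-18* at 2.08 against 5.58 (-1.09) and the channel gene *mec-4* at 0.239 against 2.14 (-1.34). None of the 8 was called between adjacent stages. Of 7 genes of dopamine and serotonin neurons none was called in any comparison, with a median of -0.23 at L4 against L1, and *cat-4*, an enzyme gene of monoamine synthesis, stood at 11.4, 18.01, 13.8 and 17.4 FPKM over L1 to L4. All 14 pan-neuronal genes had a difference below 0 at L4 against L1, with a median of -0.70, and none was called. They include *unc-31* (-8.27), whose L1 value has the wide interval for which it was left out of the sum above.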
